A study of Mus musculus with 6 samples.

Results

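Interferon-stimulated genes are the genes that cells switch on when interferons reach them, and 44 of them were followed here in mouse penile squamous carcinoma. The 44 symbols were taken as a given list, 1 row per symbol with the highest mean count, and all 44 were found among the 24063 gene symbols of the series. The tissue came from 3 SA tumors, which carried the PB-Cre transgene with homozygous loxP alleles of Smad4 and Apc (PB-Cre+ Smad4L/L ApcL/L) and arose without carcinogen, and from normal penile epithelium taken from 3 WT mice of the C57BL/6 strain. All mice were 5 months old, and each sample was profiled by stranded paired-end RNA sequencing of total RNA. PB-Cre places Cre under an androgen-responsive probasin promoter that is active in epithelium, so Cre acts in epithelial cells while the RNA came from whole tissue pieces. The labels give a strain for the WT mice only, and the transgene, the floxed alleles and any difference in genetic background cannot be told apart. Nothing in the labels says how the samples of a group relate to each other beyond their numbers, so the p-values below measure the spread between these samples.

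Type I and type III interferons bind receptors that activate a complex with STAT2 and IRF9, and this complex recognises the interferon-stimulated response element (ISRE) in the promoters of its targets. Type II interferon (interferon gamma) acts through another promoter element, the gamma-activated site (GAS). The genes that follow include sensors of viral RNA and DNA, transcription factors that feed the response, antiviral effectors and inhibitors that end it. In squamous epithelium this program is known as a first line of antiviral defence, and tumors can switch it on as well.

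The reference promoters of these genes were inspected for both elements because the members share a response rather than a protein family. RefSeq promoter sequences on GRCm38.p6, each running from 250 bases before to 50 bases after a start site, were at hand for 32 of the 44 members, and these gave 36 promoters. The ISRE core, searched as GAAANNGAAA on both strands, was present in 18 of the 36 member promoters (50%) and in 3.44% of all 32851 promoters. GAS, searched as TTCNNNGAA, was present in 9 member promoters (25%) and in 8.3% of all promoters. A match describes these letters only. The stretches below lie upstream of the start site and show the first ISRE core of 3 members that rose in SA tumors (Oas1a, Oas3 and Socs1), of Ifit3, which fell, and of Isg15, Ifit1 and Gbp2, which did not pass the test. Each is written 5′ to 3′ on the gene's strand, with every match to the core in capitals.
Oas1a: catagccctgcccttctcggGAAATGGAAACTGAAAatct
Oas3: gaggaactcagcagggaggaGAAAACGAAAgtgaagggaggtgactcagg
Socs1: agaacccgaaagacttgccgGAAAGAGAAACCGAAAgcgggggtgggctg
Ifit3: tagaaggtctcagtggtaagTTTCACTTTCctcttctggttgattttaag
Isg15: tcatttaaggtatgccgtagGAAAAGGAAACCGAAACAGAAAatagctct
Ifit1: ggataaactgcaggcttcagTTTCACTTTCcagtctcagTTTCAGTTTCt
Gbp2: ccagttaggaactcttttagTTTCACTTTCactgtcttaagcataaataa
These stretches lie at chr5:120907526-120907565 (Oas1a, minus strand), chr5:120777705-120777754 (Oas3, minus strand), chr16:10785590-10785639 (Socs1, minus strand), chr19:34583353-34583402 (Ifit3, plus strand), chr4:156200867-156200916 (Isg15, minus strand), chr19:34640765-34640814 (Ifit1, plus strand) and chr3:142620584-142620633 (Gbp2, plus strand). Where the capitals begin with TTTC, the core lies on the opposite strand.

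Upstream of the start site, the first core began at base -20 in Oas1a, -75 in Oas3, -83 in Socs1 and -156 in Ifit3. In members that were not called, the first upstream core began between -30 (Irgm1) and -222 (Stat2). Over the whole promoters, the core was found in 5 of the 6 of members that rose and in 1 of the 4 of members that fell. It was found in 12 of the 26 promoters of members that were not called. The called members Zbp1, Rtp4 and Ifi27 had no promoter sequence at hand. The GTPase genes Igtp and Irgm2 carried almost the same upstream stretch, with 48 of 50 bases identical around the core, and are shown together for that reason.
Igtp: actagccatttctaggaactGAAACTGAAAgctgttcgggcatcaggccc
Irgm2: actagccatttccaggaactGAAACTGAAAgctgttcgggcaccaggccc
These lie at chr11:58199502-58199551 and chr11:58214893-58214942, both on the plus strand.

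Gene rows summed to between 23828283 and 110509147 counts per sample, and SA replicate 3 held 4.42 times the median count of the other samples. Keratins of squamous epithelium (Krt5, Krt14, Krt1 and Krt10) were abundant in every sample. Of 10 squamous markers, 6 were lower in SA tumors, 1 was higher and 3 were not called, against 17.5% lower and 20.1% higher among all genes tested. The higher one was Epcam, with 206, 200 and 126 CPM in SA tumors and 36.2, 32.9 and 35.0 CPM in WT samples (log2 fold change 2.35). The 5 smooth muscle markers summed to 1476 to 1966 CPM in WT samples and to 34.9 to 120 CPM in SA tumors, so the WT samples also held muscle RNA. All 5 neutrophil markers tested were higher in SA tumors. Smad4 was lower and Apc was higher in SA tumors, and whole-gene counts do not check the deletion of floxed exons. In bulk tissue, fewer cells of a type and less RNA per cell cannot be told apart.

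SA tumors did not show a common shift of the interferon-stimulated genes. Of the 44 members, 8 were higher and 4 were lower in SA tumors at an adjusted p under 0.01 (quasi-likelihood F-test of edgeR, Benjamini-Hochberg adjusted over 16336 genes). The higher genes were Ddx58, Zbp1, Aim2, Eif2ak2, Socs1, Oas1a, Oas3 and Rtp4, and the lower genes were Trim25, Ifit2, Ifit3 and Ifi27. The share called was 27.3% of members against 37.6% of all genes tested. By direction it was 18.2% higher and 9.09% lower among members, against 20.1% higher and 17.5% lower among all genes. None of these member shares exceeded the background by edgeR. DESeq2 called 10 members higher and 7 lower, 38.6% of members. Its share of all genes, 34.6%, was taken over 21195 genes with low counts kept, so it cannot be set beside the 37.6% above. Without the filter on low counts, edgeR called 30% of 21195 genes and 27.3% of members. The DESeq2 shares therefore do not show whether members exceeded the background. The median log2 fold change of the members was -0.05, that of all genes tested was 0.03, and 21 members had a positive and 23 a negative value. Scaling by library totals alone, which moved the median of all genes to 0.31, gave 12 members higher and 3 lower. That was 34.1% of members, against 43.2% of all genes. The number of higher members was 5 without WT replicate 1, 4 without WT replicate 2 and 4 without WT replicate 3. In these fits 20.5%, 18.2% and 18.2% of members were called in either direction, against 29.5%, 26.6% and 29.2% of all genes.

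Requiring in addition that the log2 fold change be 2 or more in either direction left Aim2 and Oas1a as higher and Ifit3 as lower, where 9.41% of all genes were higher and 3.59% lower by both thresholds. Every SA tumor exceeded every WT sample for 12 members (27.3%, against 32.7% of all genes). Every SA tumor was below every WT sample for 11 members (25%, against 30.7% of all genes), and the groups overlapped for 21 members. At an adjusted p under 0.05, a threshold added after seeing the data, 21 members were called (47.7%, against 53.4% of all genes). That threshold added Igtp, Irf1, Irgm2, Oasl1 and Usp18 as higher and Gbp2, Gbp6, Ifi35 and Ifih1 as lower. A member that missed the threshold is not thereby shown to be equal in the groups.

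**Figure D1:**
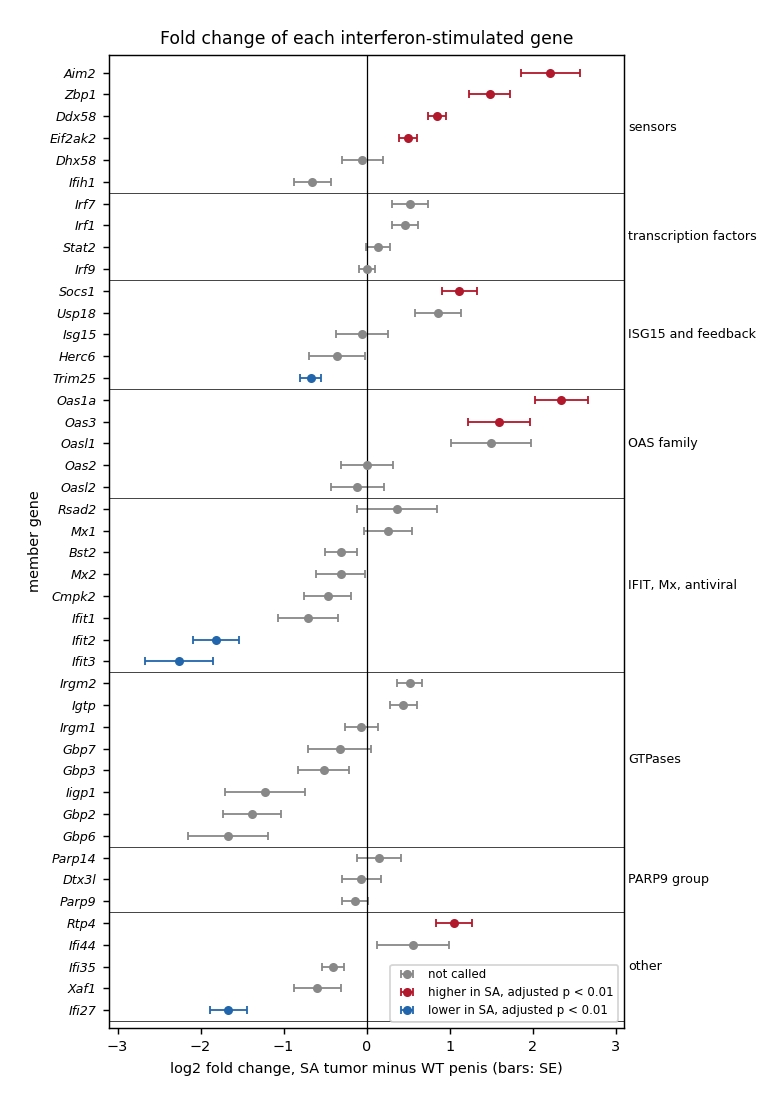
The log2 fold change of each of the 44 members (x axis, SA tumor minus WT penis, bars give the standard error) is plotted by role group, with members at an adjusted p under 0.01 in color. The values run from -2.26 for Ifit3 to 2.34 for Oas1a, and the called genes lie on both sides of 0.

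Of the 6 sensors of foreign nucleic acid, 4 were higher and none was lower by edgeR and by DESeq2, with a median log2 fold change of 0.67, where 20.1% of all genes tested were higher. Ddx58 (RIG-I, NM_172689, chr4:40203777-40239825), a cytosolic helicase that detects viral RNA, was measured at 39.6, 36.4 and 40.1 CPM in the 3 SA tumors and at 19.7, 22.9 and 22.1 CPM in the 3 WT samples. The groups did not overlap, and the log2 fold change was 0.84 (SE 0.11, adjusted p = 0.000303). Aim2 (NM_001013779, chr1:173349547-173466040), which senses cytosolic DNA and builds an inflammasome, was measured at 4.79, 5.07 and 5.77 CPM in SA tumors and at 1.85, 0.701 and 0.866 CPM in WT samples. Its log2 fold change was 2.21 (SE 0.36, adjusted p = 0.00105), and the lowest tumor stood above the highest WT sample. The annotated span of Aim2 shares 18593 bases with Cadm3, whose level went the other way, with 4.61 CPM in SA tumors and 39.7 CPM in WT samples on average.

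Zbp1 (NM_021394, chr2:173206612-173218959), a sensor of Z-form nucleic acid that can start necroptosis, was measured at 4.53, 7.61 and 6.20 CPM in SA tumors and at 2.26, 2.04 and 2.28 CPM in WT samples. Its log2 fold change was 1.48 (SE 0.25, adjusted p = 0.00117). Eif2ak2 (PKR, NM_011163, chr17:78850504-78882572), the kinase that stops translation on double-stranded RNA, had the smallest change of the called members. It was measured at 30.0, 31.2 and 33.2 CPM in SA tumors and at 20.4, 23.1 and 23.5 CPM in WT samples, a log2 fold change of 0.50 (SE 0.11, adjusted p = 0.0052). Eif2ak2 lost its call without SA replicate 2, without SA replicate 3 and without each of the WT samples. Ifih1 (MDA5), the sensor of long RNA, was lower in each SA tumor than in each WT sample but did not pass the test (log2 fold change -0.65, SE 0.22, adjusted p = 0.0351), and Dhx58 (LGP2) had a log2 fold change of -0.05 (SE 0.24). The RIG-I-like receptors thus comprised 1 gene that rose and 2 with negative values that were not called.

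None of the 4 transcription factors passed the test, and their median log2 fold change was 0.30. By edgeR 2 of them had an unadjusted p under 0.05, and DESeq2 and limma-voom called 0. Irf9, the DNA-binding partner of STAT2, was the most abundant of them per length, at 11.4 FPKM in SA tumors and 9.40 FPKM in WT samples on average. Its CPM values were 40.7, 36.2 and 39.5 in SA tumors and 39.2, 38.4 and 38.4 in WT samples, so the groups overlapped (log2 fold change 0.01, SE 0.10). Stat2 had a log2 fold change of 0.14 (SE 0.15). Irf1, an early target of interferon gamma, was higher in each SA tumor (22.7 to 26.3 CPM) than in each WT sample (14.2 to 21.1 CPM), with an adjusted p of 0.0363. Irf7, the factor that amplifies type I interferon, had a log2 fold change of 0.52 (SE 0.22, adjusted p = 0.0739).

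The ISG15 and feedback group split, with Socs1 higher, Trim25 lower and 3 members not called. Socs1 (NM_001271603, chr16:10783808-10785536), an inhibitor of the JAK kinases that is itself induced by interferon, was measured at 9.22, 7.38 and 9.86 CPM in SA tumors and at 4.93, 3.97 and 3.33 CPM in WT samples. The log2 fold change was 1.12 (SE 0.21, adjusted p = 0.00238), with no overlap of the groups. Trim25 (NM_009546, chr11:88999403-89020294), a ubiquitin ligase that acts on RIG-I and also joins ISG15 to proteins, was the most abundant member of the group per length. It was measured at 62.4, 61.1 and 80.0 CPM in SA tumors and at 114.9, 108.7 and 101.0 CPM in WT samples, a log2 fold change of -0.67 (SE 0.13, adjusted p = 0.00227). The sensor Ddx58 and its ligase Trim25 changed in opposite directions. The call of Trim25 was lost without SA replicate 2 and under library totals alone, and that of Socs1 without WT replicate 2 and without WT replicate 3. Isg15, the ubiquitin-like modifier itself, was low in both groups (2.68 ± 0.81 CPM in SA tumors and 2.80 ± 0.65 CPM in WT samples, SD, n = 3), and its log2 fold change was -0.06 (SE 0.31). Usp18, which removes ISG15 and dampens the type I receptor, had a log2 fold change of 0.86 (SE 0.28, adjusted p = 0.029), and Herc6, the mouse ligase for ISG15, one of -0.36 (SE 0.33).

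The OAS family had the highest median of the role groups (log2 fold change 1.50), with 2 of 5 members called higher (20.1% of all genes). These enzymes make the short oligoadenylates that activate RNase L. Oas1a (NM_145211, chr5:120896256-120907544) had the largest positive change of the 44 members. It was measured at 3.79, 4.83 and 6.57 CPM in SA tumors and at 1.18, 1.14 and 0.683 CPM in WT samples, a log2 fold change of 2.34 (SE 0.32, adjusted p = 0.000404). Oas3 (NM_145226, chr5:120753098-120777684) was measured at 1.64, 1.23 and 2.62 CPM in SA tumors and at 0.633, 0.701 and 0.501 CPM in WT samples, a log2 fold change of 1.60 (SE 0.37, adjusted p = 0.00704). The call of Oas3 was lost without SA replicate 3, without each of the WT samples and by limma-voom.

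Oasl2 was the most abundant OAS gene per length over all samples, although Oas1a was higher per length in SA tumors (2.01 against 1.59 FPKM on average). The groups overlapped for Oasl2, with 4.24, 5.30 and 10.4 CPM in SA tumors and 7.69, 7.41 and 6.74 CPM in WT samples (log2 fold change -0.11, SE 0.32). Oasl1 had a log2 fold change of 1.50 (SE 0.48, adjusted p = 0.0295) and Oas2 averaged 2.13 CPM in SA tumors and 2.17 CPM in WT samples. Oas1g, a near-identical neighbour of Oas1a and no member, was also higher, at 1.86 ± 0.42 CPM in SA tumors and 0.312 ± 0.045 CPM in WT samples (SD, n = 3), with a log2 fold change of 2.58 (SE 0.34, adjusted p = 0.000351). Reads that fit both copies make the split between Oas1a and Oas1g uncertain.

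The called IFIT genes moved the opposite way to the called OAS genes. Among the 8 IFIT, Mx and other direct antiviral genes, 2 were lower and none was higher, against 17.5% lower and 20.1% higher among all genes. The median log2 fold change of the group was -0.39. IFIT proteins bind viral RNA ends and block its translation. Ifit3 (NM_010501, chr19:34583119-34588982) had the largest negative change of all members, at 0.780, 0.861 and 2.33 CPM in SA tumors and 6.06, 7.81 and 6.38 CPM in WT samples. Its log2 fold change was -2.26 (SE 0.41, adjusted p = 0.002). Ifit2 (NM_008332, chr19:34550550-34576534) was measured at 1.78, 2.52 and 3.82 CPM in SA tumors and at 8.59, 10.8 and 9.80 CPM in WT samples, with a log2 fold change of -1.81 (SE 0.28, adjusted p = 0.000817). For both genes, the highest tumor lay below the lowest WT sample.

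Ifit1, their neighbour on chromosome 19, was also lower in each SA tumor (1.34, 3.81 and 3.73 CPM) than in each WT sample (4.88, 4.57 and 5.24 CPM), but the spread between tumors was wide and it did not pass the test (log2 fold change -0.71, SE 0.36, adjusted p = 0.132). Bst2 (tetherin), which holds budding virus at the cell surface, was the most abundant gene of the group per length, at 8.46 FPKM in SA tumors and 8.69 FPKM in WT samples on average. Its CPM values were 7.54, 9.80 and 8.69 in SA tumors and 13.2, 10.3 and 8.84 in WT samples (log2 fold change -0.31, SE 0.19). Mx1 and Mx2, dynamin-like GTPases of which Mx1 is defective in many inbred strains including C57BL/6, had log2 fold changes of 0.26 (SE 0.29) and -0.31 (SE 0.30). Rsad2 (viperin) had a log2 fold change of 0.36 (SE 0.48) and its genomic neighbour Cmpk2 one of -0.47 (SE 0.28). Mean levels of Mx1, Mx2 and Rsad2 stayed between 0.856 and 1.86 CPM in both groups.

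**Figure D2:**
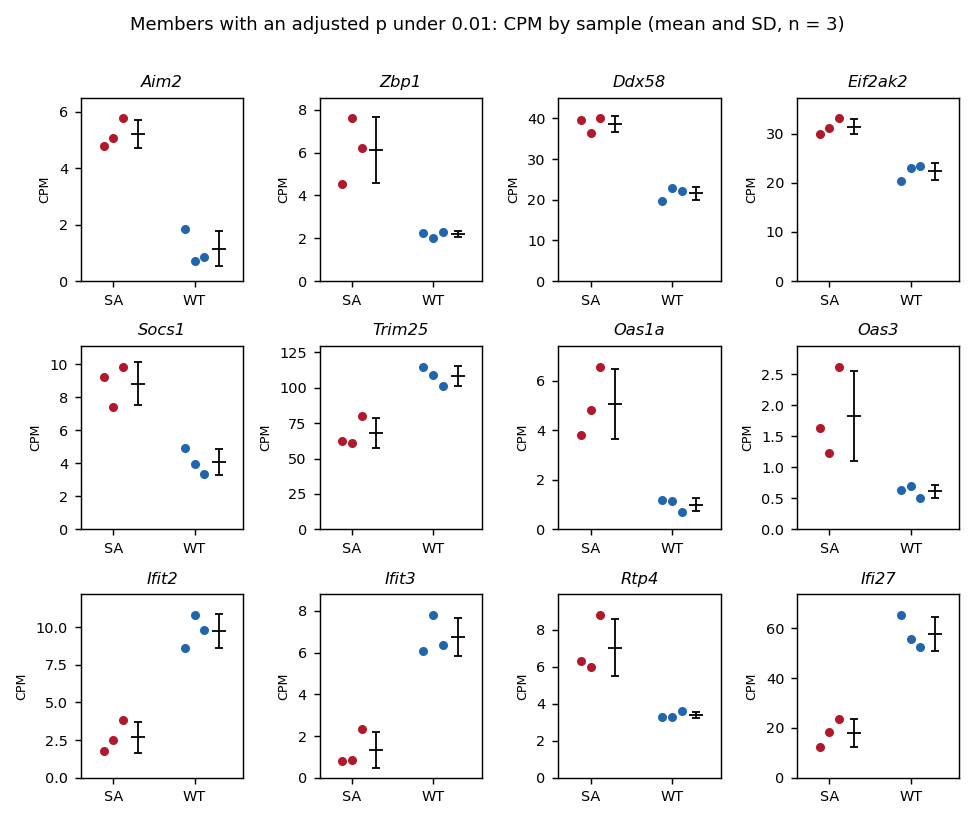
CPM (y axis, linear and starting at 0) of the 12 members with an adjusted p under 0.01 in each SA tumor (red) and each WT sample (blue), with the mean and SD (n = 3) in black. In every panel the SA and WT points do not overlap, and Aim2, Oas1a, Ifit2 and Ifit3 stand furthest apart.

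The interferon-inducible GTPases, which attack the vacuoles of intracellular pathogens and respond strongly to interferon gamma, had no called member among 8 by edgeR, where 2 were higher and 3 lower at an unadjusted p under 0.05. DESeq2 called Gbp2, Gbp6 and Iigp1 lower and Irgm2 higher, and limma-voom called 0. RLE scaling called Gbp2 lower, and library totals alone called Igtp and Irgm2 higher and no GTPase lower. Gbp2, with the largest difference in CPM of the group, was measured at 3.75, 4.77 and 10.1 CPM in SA tumors and at 18.1, 16.9 and 14.5 CPM in WT samples, and it missed the threshold narrowly (log2 fold change -1.38, SE 0.35, adjusted p = 0.0109). Gbp6 had a log2 fold change of -1.67 (SE 0.48, adjusted p = 0.0186) and Iigp1 one of -1.22 (SE 0.48, adjusted p = 0.0644). Gbp6 had only 7, 15 and 128 counts in SA tumors. Reads that also fit its near-identical relative Gbp10, no member and higher in SA tumors, make the value of Gbp6 uncertain. Irgm1 was the most abundant per length over all samples, at 4.40 FPKM in SA tumors and 3.82 FPKM in WT samples on average, although Gbp2 was higher per length in WT samples (4.17 FPKM). Irgm1 was measured at 10.9, 11.6 and 16.7 CPM in SA tumors and 14.9, 14.8 and 11.6 CPM in WT samples. Its groups overlapped (log2 fold change -0.06, SE 0.20). Igtp and Irgm2, the pair with the shared upstream stretch, were both higher in each SA tumor than in each WT sample, with log2 fold changes of 0.44 (SE 0.16, adjusted p = 0.0466) and 0.52 (SE 0.15, adjusted p = 0.0189). The 4 GBP members, Iigp1 and Irgm1 had negative values, and Igtp and Irgm2 had positive ones, with none called by edgeR.

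The edgeR calls among the GTPases depended on which tumors were included. Without SA replicate 2, Irgm2 was called higher. Without SA replicate 3, 5 of the 8 GTPases were called lower. These were Gbp2 (log2 fold change -1.95), Gbp3 (-0.96), Gbp6 (-2.43), Gbp7 (-0.96) and Iigp1 (-2.14). Over all members, 16 were then called (36.4%, against 37.0% of all genes), 6 higher and 10 lower, with Ifih1 also added as lower and Eif2ak2 and Oas3 lost. The number past both thresholds went from 3 to 6. The members' median log2 fold change was then -0.29, while that of all genes was 0.02.

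The PARP9 group, in which Parp9 and Dtx3l share a bidirectional promoter and act as a ubiquitin ligase pair, had 0 members called by edgeR, DESeq2 or limma-voom and 0 with an unadjusted p under 0.05. Parp9 was measured at 17.3, 18.0 and 25.0 CPM in SA tumors and at 23.1, 22.1 and 21.5 CPM in WT samples (log2 fold change -0.14, SE 0.16). Dtx3l had a log2 fold change of -0.06 (SE 0.23) and Parp14, a macrodomain protein of interferon responses, one of 0.15 (SE 0.26). All 3 were highest in SA replicate 3, which lay above the WT samples, while SA replicates 1 and 2 lay below the WT samples for Parp9, Dtx3l and Parp14.

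Of the other 5 members, Rtp4 was higher, Ifi27 was lower and 3 were not called. Rtp4 (NM_023386, chr16:23520219-23614222), a receptor transporter that also restricts viruses, was measured at 6.28, 5.99 and 8.80 CPM in SA tumors and at 3.30, 3.31 and 3.60 CPM in WT samples, a log2 fold change of 1.05 (SE 0.21, adjusted p = 0.00347). Its annotated span shares 1022 bases with Masp1, which averaged 24.3 CPM in SA tumors and 17.0 CPM in WT samples, and its call was lost without any 1 of the WT samples. Ifi27 (NM_026790, chr12:103434189-103440245), a mitochondrial protein strongly induced by type I interferon, was the most abundant of all members per length in both groups, at 33.9 FPKM against 12.8 FPKM in SA tumors on average. It was measured at 12.3, 18.2 and 23.6 CPM in SA tumors and at 65.3, 55.5 and 52.4 CPM in WT samples, a log2 fold change of -1.67 (SE 0.22, adjusted p = 0.000377). Its span shares 6057 bases with that of Ifi27l2a, a related gene outside the list that was also lower (3.02 ± 1.28 CPM in SA tumors and 11.0 ± 0.94 CPM in WT samples, SD, n = 3). Ifi35, Ifi44 and Xaf1 had log2 fold changes of -0.41 (SE 0.13, adjusted p = 0.0296), 0.56 (SE 0.44) and -0.59 (SE 0.28). Strand use in the counting is not stated, so overlapping genes may have exchanged reads.

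**Figure D3:**
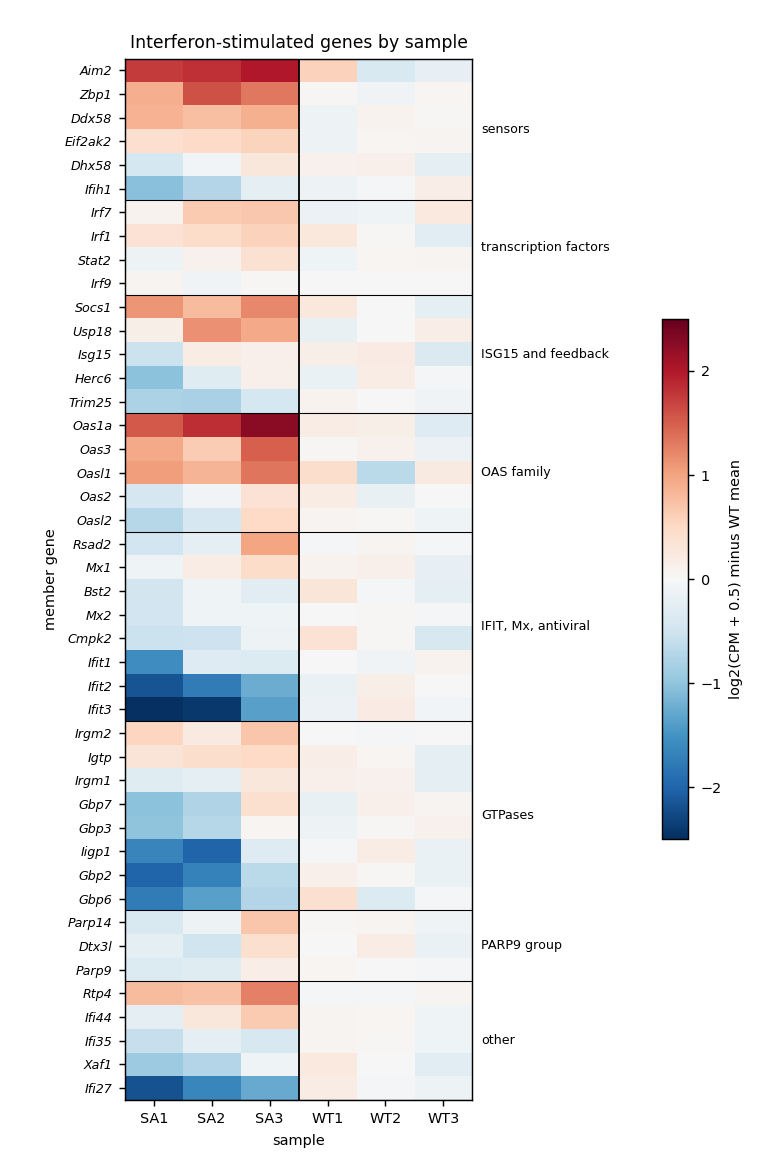
Each row is a member, each column a sample, and color gives log2(CPM + 0.5) minus the WT mean of that gene (red above, blue below), grouped by role and ordered by fold change. Of the 3 SA columns, SA3 is the highest in 37 of 44 rows and SA1 the lowest in 34, and the WT columns stay pale.

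For most members, SA replicate 3 was the highest and SA replicate 1 the lowest of the 3 tumors. SA replicate 3 had the highest value of the 3 tumors for 37 of 44 members (84.1%), against 35.8% of all genes tested, and the lowest for none. SA replicate 1 had the lowest for 34 members (77.3%), against 32.7% of all genes. Among the 8 members called higher, SA replicate 1 was lowest for 4 and SA replicate 2 for 4. The median member stood at -0.40 in SA replicate 1, -0.11 in SA replicate 2 and 0.36 in SA replicate 3, as log2(CPM + 0.5) minus the WT mean, while the median of all genes tested was between 0.02 and 0.03 in each tumor. The GTPases spanned the widest range of these, from -1.01 and -0.74 to 0.16, and all 8 were highest in SA replicate 3. The sensors differed less, at 0.64, 0.61 and 0.72. The median ratio of highest to lowest tumor was 1.73 for members and 1.28 for all genes, and the same ratio within WT samples was 1.29 for members and 1.23 for all genes.

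Several marker lists of other cell types also differed between the tumors. All 6 pan-leukocyte markers were lowest in SA replicate 1 and highest in SA replicate 3, and they summed to 98.1, 160.6 and 231 CPM in the 3 tumors and to between 74.9 and 104.6 CPM in WT samples. Of the T and NK cell markers, the 4 that could be tested were the T cell genes Cd3e, Cd3d, Cd3g and Cd4. These 4 were likewise lowest in SA replicate 1 and highest in SA replicate 3. The NK cell genes Ncr1, Klrb1c and Nkg7 were too low to be tested. The 9 markers in the files summed to 3.46, 7.22 and 14.9 CPM in tumors and to 2.92 to 6.78 CPM in WT samples. Cd8a, Cd8b1 and Ncr1 averaged 0.0952, 0.0602 and 0.0108 CPM in SA tumors. The 7 macrophage markers summed to 134.0, 309.0 and 319 CPM in tumors and 218 to 309.7 CPM in WT samples, and all 7 were lowest in SA replicate 1, while 4 were highest in SA replicate 2 and 3 in SA replicate 3. The neutrophil markers summed to 1738, 1426 and 2488 CPM in tumors, with all 5 tested highest in SA replicate 3 and 3 of them lowest in SA replicate 1. Most of that sum was S100a8 (734, 582 and 1034 CPM) and S100a9 (976, 803 and 1368 CPM), which were lowest in SA replicate 2. Csf3r, Cxcr2 and Retnlg were the 3 lowest in SA replicate 1, with Csf3r at 19.1, 28.4 and 63.4 CPM. Fibroblast markers, 6 of 6 lowest in SA replicate 1 and highest in SA replicate 3, summed to 1285, 3705 and 4763 CPM in tumors and 6073 to 6355 CPM in WT samples. SA replicate 3 was also the deepest library. The part of cell composition or depth in these differences between tumors was not tested.

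**Figure D4:**
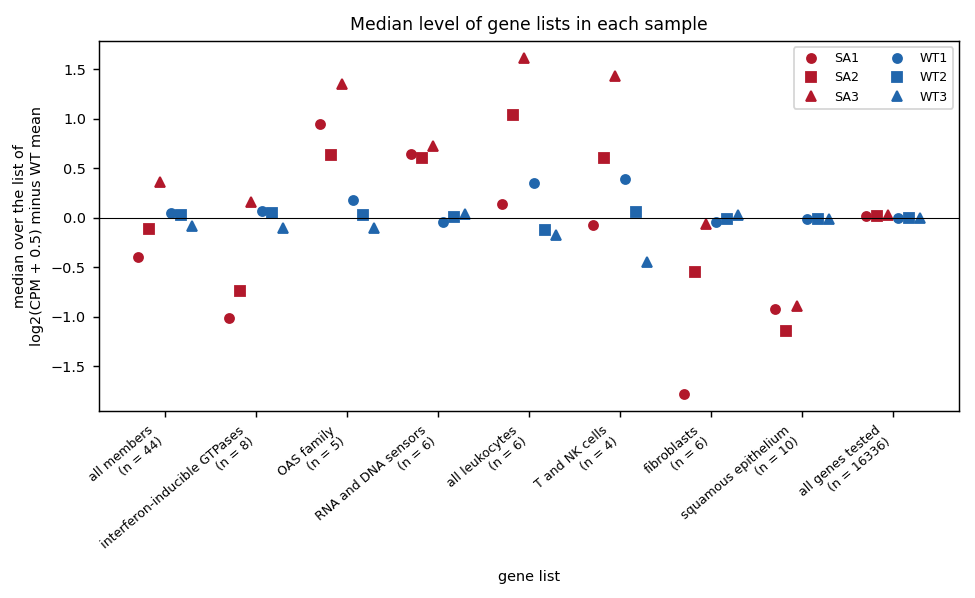
For each gene list (x axis, with the number of genes), the median over its genes of log2(CPM + 0.5) minus the WT mean is shown for each sample, with SA tumors in red and WT samples in blue. In SA tumors all members, T and NK cell markers, leukocyte markers and fibroblast markers are highest in SA3 and lowest in SA1, and all genes tested stay near 0. The 4 genes under T and NK cells are T cell genes (Cd3e, Cd3d, Cd3g and Cd4).

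The wider interferon pathway was followed with 109 further genes, of which 101 were in the files and 75 could be tested. At an adjusted p under 0.01, 13 were higher and 12 were lower in SA tumors, against the 20.1% higher and 17.5% lower among all genes tested. RNA of the interferons themselves was scarce. The 21 ligand genes in the files had 1, 4 and 61 counts in total in SA tumors and 1, 1 and 2 counts in WT samples, none passed the filter on low counts, and 12 had no count in any sample. Ifnb1 (interferon beta) was among those 12, and a count of 0 allows up to 0.0244 CPM in the deepest library and up to 0.137 CPM in the shallowest. Ifne, the interferon of the reproductive epithelium, reached 0.0372, 0.0662 and 0.244 CPM in SA tumors and 0.0456 CPM in 1 WT sample, with no count in the other WT samples. Ifnk, the keratinocyte interferon, had counts only in SA replicate 3 (0.13 CPM). Ifng had counts in SA replicate 3 (0.0569 CPM) and WT replicate 2 (0.0334 CPM). Ifna2, Ifna11, Ifna13 and Ifnab had counts only in SA replicate 3, at no more than 0.0162 CPM. Ifnl3 had counts only in SA replicate 2 and Ifnz had counts in 4 samples, none above 0.0456 CPM. At this depth, differences in ligand RNA between the groups were not detectable.

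Of the 6 receptor genes in the files, 3 were higher and 2 were lower, against 20.1% higher and 17.5% lower among all genes tested. Both chains of the type I receptor were higher: Ifnar1 was measured at 79.4, 79.6 and 90.2 CPM in SA tumors and at 54.3, 55.1 and 54.9 CPM in WT samples (log2 fold change 0.60, SE 0.09, adjusted p = 0.000822). Ifnar2 was measured at 21.7, 26.3 and 28.5 CPM in SA tumors and at 18.0, 16.2 and 14.9 CPM in WT samples (log2 fold change 0.64, SE 0.14, adjusted p = 0.00537), a call that was lost without any 1 sample other than SA replicate 1. The 2 chains of the interferon gamma receptor moved apart. Ifngr1, the chain that binds the ligand, fell from 173.4, 160.0 and 156.8 CPM in WT samples to 36.4, 49.1 and 62.6 CPM in SA tumors (log2 fold change -1.72, SE 0.18, adjusted p = 0.000108). Ifngr2, the signaling chain, rose from 27.4, 28.5 and 26.4 CPM to 48.1, 54.8 and 51.4 CPM (log2 fold change 0.90, SE 0.10, adjusted p = 0.000127). Of the type III receptor, the specific chain Ifnlr1 was lower, at 12.4, 12.3 and 11.1 CPM in SA tumors and 28.6, 34.4 and 34.0 CPM in WT samples (log2 fold change -1.44, SE 0.12, adjusted p = 3.58e-05). Its partner Il10rb, shared with other cytokines, had a log2 fold change of 0.02 (SE 0.16).

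**Figure D5:**
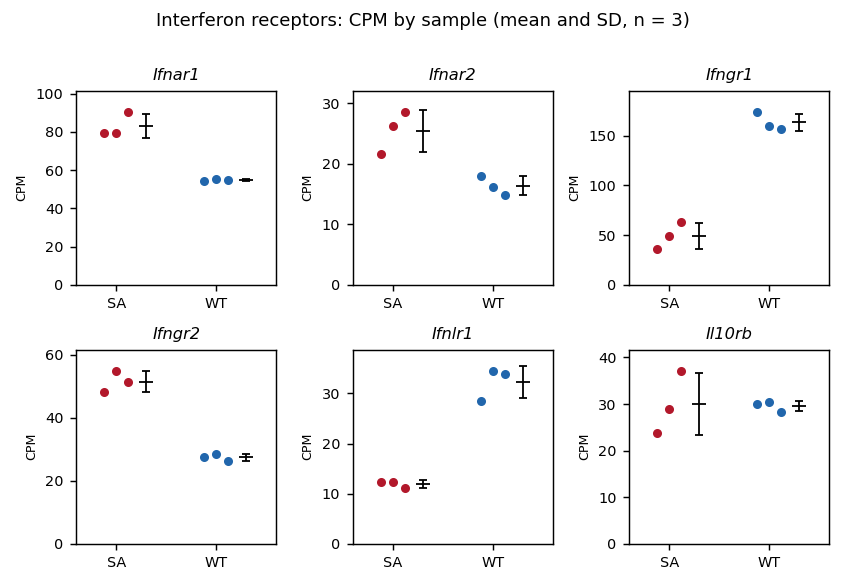
CPM (y axis, linear and starting at 0) of 6 interferon receptor genes in each SA tumor (red) and each WT sample (blue), with the mean and SD (n = 3) in black. Ifngr1 and Ifnlr1 are lower and Ifnar1, Ifnar2 and Ifngr2 are higher in all SA tumors, while the groups overlap for Il10rb.

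Of the receptor kinases and inhibitors of the pathway, 1 of 7 was called, against 37.6% of all genes tested. This was Pias1, an inhibitor of STAT signaling, which was lower (log2 fold change -0.70). Upstream of interferon, Tmem173 (STING) was higher at 26.2, 32.5 and 37.0 CPM in SA tumors and 5.29, 5.27 and 6.29 CPM in WT samples (log2 fold change 2.51, SE 0.17, adjusted p = 9.81e-06), and Traf3 was also higher. Mavs, the adaptor of the RIG-I-like receptors, Ikbke and Irf5 were lower, with log2 fold changes of -0.76, -1.45 and -0.62, and the call of Irf5 was lost without any 1 sample other than SA replicate 2. Mb21d1 (cGAS), the DNA sensor that feeds STING, had a log2 fold change of -0.45 and was not called. Ddx58 was higher and its adaptor Mavs lower.

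Among 48 other interferon-induced genes that could be tested, 8 were higher and 6 were lower, beside a background of 20.1% higher and 17.5% lower. Ifitm1, a membrane protein that blocks viral entry, had the largest change, at 88.0, 107.7 and 80.4 CPM in SA tumors and 3.30, 3.14 and 3.10 CPM in WT samples (log2 fold change 4.85, SE 0.15, adjusted p = 7.02e-07). Ifitm2 (0.67) and Ifitm3 (1.17) were higher as well. Gbp10 was higher (log2 fold change 3.13, SE 0.69, adjusted p = 0.00529), but with only 0.687 CPM on average in SA tumors and no count in 1 WT sample, and its near-identical relatives Gbp6 and others make its reads uncertain. Ifi205 (-2.37) and Ifi27l2a (-1.84) were the largest decreases of this list. Lgals3bp (1.84), Mnda (1.19) and Parp11 (0.71) were higher, and Nmi (-0.98), Pml (-0.66), Ifi30 (-0.60) and Parp10 (-0.54) were lower. In this list the calls of Ifitm1, Ifitm3, Lgals3bp, Oas1g, Ifi205 and Ifi27l2a held in each fit that left out 1 sample, and each of the others was lost in at least 1 such fit.

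Plasmacytoid dendritic cells are the main source of type I interferon among leukocytes. Their 7 markers summed to 7.58, 12.3 and 9.93 CPM in SA tumors and 7.41 to 12.5 CPM in WT samples, and those tested did not move together. Siglech, the defining marker, averaged 0.286 CPM in SA tumors and 1.30 CPM in WT samples (log2 fold change -1.90, adjusted p = 0.0189), Cd209d was lower and Ccr9 was higher. The part of these cells in the values above was not tested.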

How the data were processed

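RNA of 3 SA tumors and 3 WT penile epithelia was sequenced on an Illumina HiSeq instrument. TopHat alignment to mm10 and HTSeq counting were done by the authors (versions are not given in the sources used here), and the deposited files give raw counts per RefSeq transcript beside FPKM and TPM values that the authors derived from them. TPM was not used, and FPKM was used only to compare levels between genes per length.

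Counts of the highest transcript row of each symbol were tested with edgeR 4.0.16 in R 4.3.3 (TMM, filterByExpr with a minimum of 10 counts, here 0.380 CPM in at least 3 samples, robust quasi-likelihood F-test, 16336 genes). SE is the size of the log2 fold change divided by the square root of F. CPM values are TMM-normalized, and 0.5 was added before log2 where stated. Floors are 3 counts and cover counting error only. Thresholds were an adjusted p under 0.01 and, as stated, a log2 fold change of 2, following the methods of the study. The members and lists were chosen with earlier results of these data known. Per-sample values are given for members with an adjusted p under 0.01, for the most abundant member of each role group per length, and for receptors, ligands with counts and the largest changes in the pathway lists. Of the pathway list, 1 gene was left out and is not reported here. Gbp2, Ifit1 and Irf1 were described beyond that rule, after their values were seen. Alternatives were DESeq2 1.42.0, limma-voom 3.58.1, other scalings, filters and transcript rows, a replicate block, and leaving out each sample. The code was tested on simulated counts. Coordinates and promoters are from RefSeq tables of GRCm38.p6. Figures were drawn with matplotlib.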

Additional observations from a re-analysis of the deposited data

How the results depend on the processing

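Of the 12 called members, Aim2 and Oas1a stayed called under every alternative run, and no called member reversed. Among members, DESeq2 called 7 lower, the test against a log2 fold change of 1 called 2 higher (Aim2 and Oas1a) and 0 lower, and the looser threshold of 0.05 called 13 higher and 8 lower. The test against a log2 fold change of 1 called 4.55% of members and 14% of all genes. At 0.05 these shares were 47.7% and 53.4%. In the other pathway genes the corresponding numbers that moved were 21 higher and 7 lower with library totals only, 4 higher and 3 lower against a log2 fold change of 1, and 22 higher at 0.05. Of all genes, 43.2% were called with library totals only. Leaving out each sample in turn gave 4 to 9 members higher, 3 to 10 lower and 2 to 6 past both thresholds, a member median between -0.29 and 0.12, and 9 to 17 pathway genes higher and 7 to 17 lower. Those fits called 18.2% to 36.4% of members, against 26.6% to 37% of all genes. The highest number of lower members and of members past both thresholds came without SA replicate 3, and the fewest lower pathway genes without any 1 of the WT samples. The cause was not tested.

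Residuals of same-numbered samples had correlations of -0.159, -0.168 and 0.0478 across genes, and those of differently numbered samples ran from -0.19 to 0.273. With 3 samples per group, these values cannot settle whether same-numbered samples share more than a label. With a replicate block, 6 members were higher and 4 lower, Eif2ak2 and Oas3 lost their calls, and 32.2% of all genes were called. Of the members that were not called, 11 changed sign under some alternative. Depth limits the interferon ligands, none of which passed the filter on low counts.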
